A study of Rattus norvegicus with 6 samples.

Results

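The 5 genes described here are markers and regulators of the osteoclast, the multinucleated cell of the monocyte lineage that dissolves bone. They were taken by Ensembl identifier from a table of 32883 rat genes: Ctsk (ENSRNOG00000021155), Acp5 (ENSRNOG00000046261), Nfatc1 (ENSRNOG00000017146), Csf1 (ENSRNOG00000018659) and Tnfrsf11b (ENSRNOG00000008336). All 5 were in the table and all 5 passed the filter on low counts. The symbols came with the choice of genes. A RefSeq gene table for rat assembly GRCr8 lists all 5 symbols, but its Ensembl column is empty, so the pairing of identifier and symbol could not be checked against an annotation.

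The libraries were made from bone RNA of 3 exercised and 3 control rats. All 6 animals are labelled WT. Per the series title the animals were adult and the exercise was treadmill running of moderate intensity. The exercised animals carry the treatment label exercise and the controls the label no. The sources used here give no strain, sex, exact age, bone site, running protocol or time of sampling.

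Osteoclasts form when the cytokine encoded by Csf1 keeps their monocyte precursors alive and the ligand RANKL engages its receptor on them. That signal induces the transcription factor encoded by Nfatc1, which switches on resorption genes such as Ctsk and Acp5. Osteoprotegerin, the product of Tnfrsf11b, is a soluble decoy that binds RANKL and restrains the process. In bone, Csf1 and Tnfrsf11b are made largely by osteoblasts, osteocytes and stromal cells, so the 5 genes span the resorbing cell and the cells that control it.

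Ctsk and Acp5 are regarded as targets of Nfatc1, so the bases before their annotated starts are shown, with matches to 4 motifs of osteoclast transcription factors in capitals. The motifs were the NFAT core GGAAA, the E-box CATGTG of the MITF type, the PU.1 motif GAGGAA and the AP-1 motif TGANTCA, each searched on both strands. Sequences are the 250 bases upstream of the start, from RefSeq on GRCr8, 5′ to 3′ on the gene's strand. The Ctsk window is chr2:185747298-185747547 on the plus strand, and Acp5 has 2 listed starts, with windows chr8:28945931-28946180 and chr8:28943930-28944179 on the minus strand.
Ctsk: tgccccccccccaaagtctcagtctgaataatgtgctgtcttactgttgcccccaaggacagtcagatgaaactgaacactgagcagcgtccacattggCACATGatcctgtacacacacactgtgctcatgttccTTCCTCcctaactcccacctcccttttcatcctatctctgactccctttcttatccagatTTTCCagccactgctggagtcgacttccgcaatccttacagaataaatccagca
Acp5, start 1: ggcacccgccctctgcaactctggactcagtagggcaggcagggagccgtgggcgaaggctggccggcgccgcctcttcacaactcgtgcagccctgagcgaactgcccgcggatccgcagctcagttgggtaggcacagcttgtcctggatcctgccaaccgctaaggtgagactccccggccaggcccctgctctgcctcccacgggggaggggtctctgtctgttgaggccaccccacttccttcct
Acp5, start 2: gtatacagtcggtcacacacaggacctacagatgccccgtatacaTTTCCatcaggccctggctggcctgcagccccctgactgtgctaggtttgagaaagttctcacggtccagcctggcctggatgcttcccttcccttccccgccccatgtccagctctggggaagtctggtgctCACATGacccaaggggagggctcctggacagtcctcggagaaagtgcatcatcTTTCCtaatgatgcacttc

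The Ctsk window held an E-box beginning 151 bases before the start, a PU.1 motif beginning 114 bases before it and an NFAT core beginning 54 bases before it, all on the opposite strand. The second Acp5 window held an E-box beginning 72 bases before its start and NFAT cores beginning 205 and 19 bases before it. The first Acp5 window held no match to the 4 motifs, and no window held the AP-1 motif. These matches are a description of letters. Of 33469 RefSeq promoter windows of 250 bases, 56.9% held GGAAA, 12.1% held CATGTG, 23.3% held GAGGAA and 6.34% held TGANTCA, and no 2 of the matches shown overlapped. Nfatc1, Csf1 and Tnfrsf11b have no entry in the promoter table.

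The libraries held between 14056743 and 18126584 counts. They differed strongly from each other within groups: the first principal component of log2 CPM took 65.3% of the variance, with control replicate 3 (score -126.1) and exercised replicate 3 (score 116.8) at its ends. Each difference is therefore also given without those libraries. Control replicate 2, which was the highest library for Ctsk, Acp5 and Csf1, scored 52.7. CPM is the count relative to the library's total, expressed per 1000000 counts and rescaled by TMM, a method that balances the libraries over all genes. The labels give the cell type as osteocyte (spelled oeteocyte there). No other gene could be matched to a symbol, so neither osteocyte markers nor those of marrow, muscle or fat were read out. In these bone libraries, fewer osteoclasts cannot be told apart from less RNA per osteoclast.

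None of the 5 genes passed the test between exercised and control bone. By edgeR's quasi-likelihood test, fitted to 14495 genes with Benjamini-Hochberg adjustment, 0 of the 5 had an adjusted p under 0.05, against a background of 0% of all tested genes. At an unadjusted p under 0.05 edgeR had 247 genes (1.70%), again none of the 5. DESeq2 called 1 gene and limma voom 0 genes at an adjusted p under 0.05, and no member was among them, with no p-value given to Acp5 by DESeq2. What the 5 genes did show was a split in how much they varied between animals. Ctsk, Acp5 and Tnfrsf11b each ranged over more than 30-fold between libraries, whereas Nfatc1 and Csf1 stayed within 3-fold.

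**Figure D1:**
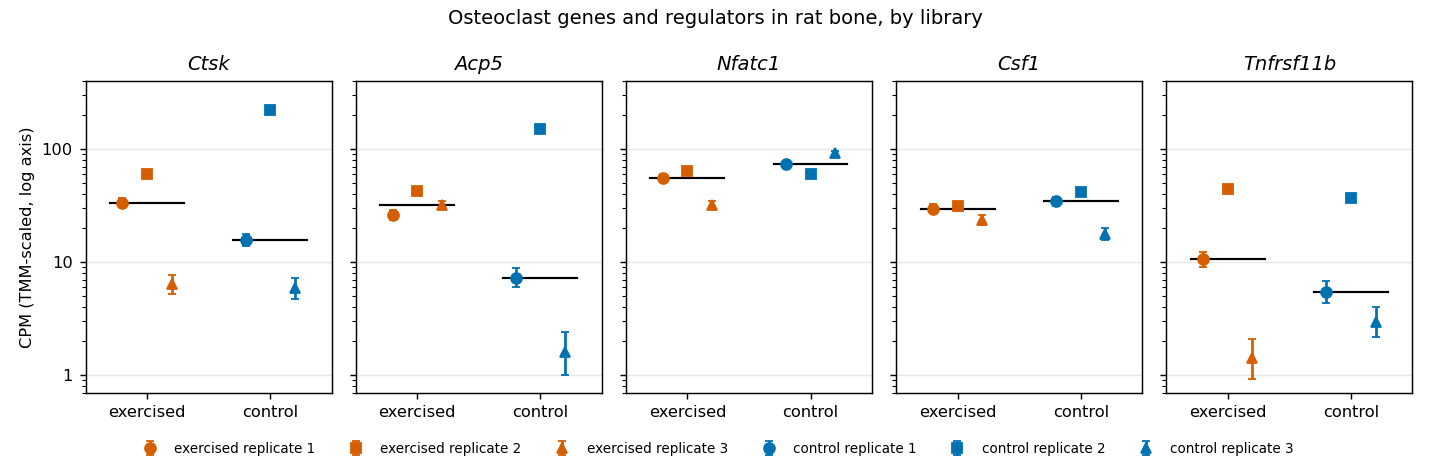
CPM (TMM-scaled, log axis) of each gene in the 3 exercised and 3 control libraries. Symbols mark the replicate, vertical bars the exact 95% Poisson interval of the count and horizontal lines the group median. Ctsk, Acp5 and Tnfrsf11b run over more than a decade, with control replicate 2 far above the other controls, while Nfatc1 stays between 32.0 and 91.9 CPM and Csf1 between 17.9 and 42.2 CPM.

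Ctsk encodes cathepsin K, the protease that degrades collagen in the resorption pit. Its counts were 496, 862 and 112 in exercised replicates 1, 2 and 3, and 231, 3774 and 85 in control replicates 1, 2 and 3. On the CPM scale these were 33.7, 60.5 and 6.36 in exercised bone, and 15.8, 222.4 and 5.91 in control bone. All 3 exercised libraries lay between the lowest and the highest control, so the groups overlapped completely. Control replicate 2 was 3.68-fold above the next library and 37.7-fold above control replicate 3, and it held 91.1% of the summed CPM of the 3 controls. Counting error is small beside this: the exact 95% Poisson interval of the lowest library, at 85 counts, ran from 4.72 to 7.30 CPM.

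The Ctsk mean was 33.5 ± 27.1 CPM in exercised bone and 81.4 ± 122.2 CPM in control bone (SD, n = 3 each). By edgeR the log2 fold difference was -1.28 (SE 1.39, 95% interval -4.62 to 2.06, adjusted p = 0.889). The group medians ran the other way, at 33.7 CPM in exercised and 15.8 CPM in control bone. On the log scale the difference of means was -0.23, with p = 1.0 in a two-sided exact permutation test, where 3 against 3 allows no p below 0.1. Without control replicate 2 the edgeR log2 fold difference turned to 1.63 (adjusted p = 0.578). Without control replicate 3 and exercised replicate 3 together it was -1.34.

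Acp5 encodes tartrate-resistant acid phosphatase, the enzyme whose staining identifies osteoclasts in sections and which macrophages can also make. Its counts were 383, 613 and 562 in exercised bone, and 107, 2572 and 23 in control bone. The corresponding CPM values were 26.0, 43.0 and 31.9 in exercised replicates 1, 2 and 3, and 7.30, 151.6 and 1.60 in control replicates 1, 2 and 3. The exercised libraries lay close together, within 1.65-fold of each other, in the middle of a control group that spanned 94.8-fold. Control replicate 2 alone held 94.5% of the summed control CPM.

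Acp5 averaged 33.7 ± 8.63 CPM in exercised bone and 53.5 ± 85.0 CPM in control bone (SD, n = 3 each). By edgeR, which averages on the count scale, the log2 fold difference was -0.67 (SE 1.40, 95% interval -4.02 to 2.68, adjusted p = 0.931). Averaged on the log scale it had the opposite sign, at 1.41 (exact permutation p = 0.5, two-sided). The permutation test was planned. Setting this difference of means beside the edgeR estimate, as for Ctsk, was added after seeing the data. Without control replicate 2 the 3 exercised libraries all lay above the 2 remaining controls. The library left out was the highest for Acp5, and the share of all genes that separate this way was not computed. The edgeR log2 fold difference was then 2.92 (95% interval 1.17 to 4.66), with an unadjusted p of 0.0066 and an adjusted p of 0.537. In that fit 1315 of 14725 tested genes had an unadjusted edgeR p under 0.05, and 0 passed after adjustment. The direction for Acp5 thus rests on 1 control library. Without control replicate 3 and exercised replicate 3 together the log2 fold difference was -1.20.

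Nfatc1, the transcription factor that drives osteoclast differentiation and is also used by lymphocytes and other cells, behaved differently. Its counts were 824, 918 and 564 in exercised bone, and 1090, 1025 and 1322 in control bone. In CPM these were 56.0, 64.4 and 32.0 in exercised replicates 1, 2 and 3, and 74.3, 60.4 and 91.9 in control replicates 1, 2 and 3. Exercised replicate 2 lay above control replicate 2, and otherwise the exercised libraries were below the controls. Control replicates 2 and 3, which stood 37.7-fold apart in Ctsk, differed by only 1.52-fold in Nfatc1, with the higher value in control replicate 3.

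The Nfatc1 mean was 50.8 ± 16.8 CPM in exercised bone and 75.5 ± 15.8 CPM in control bone (SD, n = 3 each). Its difference was -0.57 on the log2 scale (SE 0.33, 95% interval -1.37 to 0.22, edgeR adjusted p = 0.889), and the two-sided exact permutation test on log2 CPM gave p = 0.2. When counts were scaled by library size alone, without TMM, the groups no longer overlapped. The values were then 52.6, 64.3 and 37.4 in exercised bone, and 70.4, 72.9 and 72.9 in control bone, with a log2 fold difference of -0.49 (edgeR adjusted p = 0.931). The exact permutation p was 0.1 on that scale, the smallest that 3 against 3 allows. Under that scaling 3.86% of all tested genes lay wholly lower in exercised bone, and 4.01% did so with TMM. Without control replicate 3 and exercised replicate 3 together, the log2 fold difference of Nfatc1 shrank to -0.16.

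Csf1 encodes macrophage colony-stimulating factor, the survival signal of osteoclast precursors. Counts were 438, 446 and 415 in exercised bone, and 508, 716 and 257 in control bone. These correspond to 29.8, 31.3 and 23.6 CPM in exercised replicates 1, 2 and 3, and 34.6, 42.2 and 17.9 CPM in control replicates 1, 2 and 3. As with Acp5, the exercised libraries were close together, within 1.33-fold, and lay inside the control range of 2.36-fold.

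Csf1 averaged 28.2 ± 4.09 CPM in exercised bone and 31.6 ± 12.5 CPM in control bone (SD, n = 3 each), a difference of -0.16 on the log2 scale (SE 0.35, 95% interval -1.01 to 0.69, edgeR adjusted p = 0.934; two-sided exact permutation p = 0.8). Nfatc1 and Csf1 had the narrowest intervals of the 5 genes, and both include 0. Without control replicate 2 the sign for Csf1 turned, at 0.10, and without control replicate 3 and exercised replicate 3 together it was -0.33.

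Tnfrsf11b, encoding osteoprotegerin, varied nearly as widely as the resorption genes. Its counts were 156, 636 and 25 in exercised bone, and 80, 625 and 43 in control bone. The CPM values were 10.6, 44.6 and 1.42 in exercised replicates 1, 2 and 3, and 5.45, 36.8 and 2.99 in control replicates 1, 2 and 3. Each group held 1 high library, replicate 2 in both, and the groups overlapped. The lowest value, from 25 counts in exercised replicate 3, had an exact 95% Poisson interval of 0.92 to 2.1 CPM.

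The Tnfrsf11b mean was 18.9 ± 22.8 CPM in exercised bone and 15.1 ± 18.9 CPM in control bone (SD, n = 3 each). Its difference was 0.32 on the log2 scale (SE 1.32, 95% interval -2.85 to 3.49, edgeR adjusted p = 0.965; two-sided exact permutation p = 1.0). It was -1.40 without exercised replicate 2 and 2.16 without control replicate 2, so either high library moved the estimate by more than its standard error. The sign also turned without control replicate 1 (-0.07) or control replicate 3 (-0.16). Without control replicate 3 and exercised replicate 3 together it was 0.38.

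**Figure D2:**
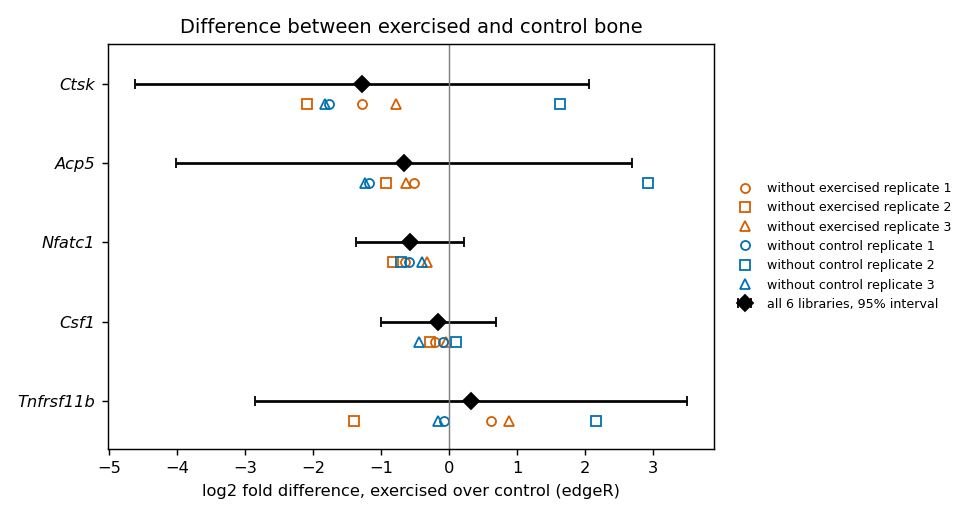
The log2 fold difference of each gene, exercised over control, from edgeR with its 95% interval (black), and the same estimate with 1 library left out (open symbols). The intervals of Ctsk, Acp5 and Tnfrsf11b span more than 6 log2 units, and leaving out control replicate 2 moves these genes to 1.63, 2.92 and 2.16. The Nfatc1 estimates stay between -0.83 and -0.33.

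With the first principal component as a covariate in the edgeR fit, the log2 fold difference was -0.85 for Ctsk, -0.38 for Acp5, -0.23 for Nfatc1, -0.32 for Csf1 and 0.43 for Tnfrsf11b. All 5 kept their signs. The estimates for Ctsk, Acp5 and Nfatc1 were smaller in size than without the covariate (-1.28, -0.67 and -0.57). Those for Csf1 and Tnfrsf11b were larger in size than without it (-0.16 and 0.32). None of the 5 passed the test, with adjusted p from 0.946 to 0.986. The component is computed from the same libraries, so a difference that ran along it would be removed.

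The spread of the members was set against that of all tested genes. The SD of log2 CPM within groups was 2.24 for Ctsk, 2.34 for Acp5 and 2.17 for Tnfrsf11b, above 98.6%, 98.9% and 98.3% of tested genes. It was 0.43 for Nfatc1 and 0.48 for Csf1, above 41.8% and 47.0%, with a median of 0.51 over all tested genes. From the highest to the lowest library, Acp5 ranged over 94.8-fold, Ctsk over 37.7-fold and Tnfrsf11b over 31.4-fold. Nfatc1 ranged over 2.87-fold and Csf1 over 2.36-fold. Over all tested genes, 12.7% ranged over more than 10-fold when a prior count of 2 was added.

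**Figure D3:**
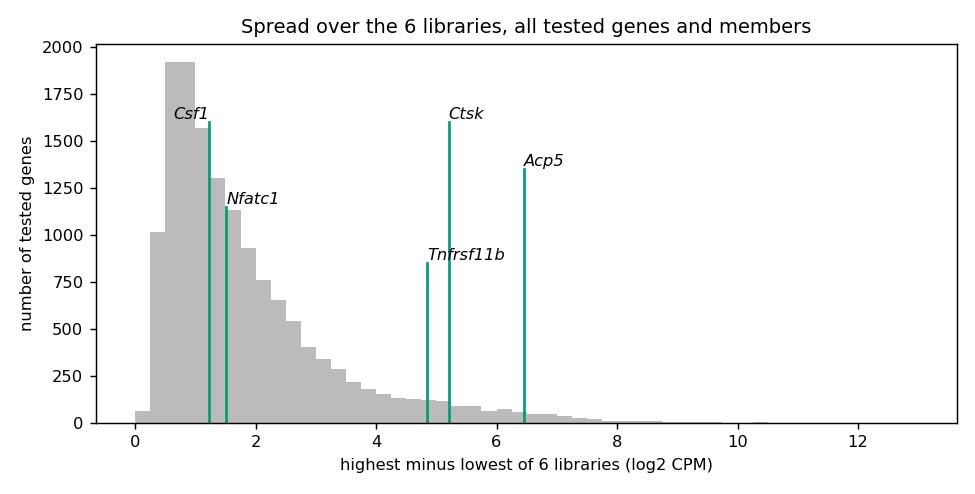
Histogram of the difference between the highest and the lowest of the 6 libraries (log2 CPM, prior count 2) over 14495 tested genes, with the 5 members as vertical lines whose height has no meaning. Csf1 and Nfatc1 fall in the bulk, above 44.2% and 54.3% of genes, and Tnfrsf11b, Ctsk and Acp5 in the upper tail, above 94.5%, 95.7% and 98.3%.

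Ratios of counts within a library do not depend on library scaling and set genes against each other directly. Of the resorption genes, only Ctsk was set against the regulators. Since transcript lengths were not known, a ratio says nothing about which of a pair was more abundant, and only its change between libraries is read. Of the 5 ratios examined, Ctsk to Nfatc1 changed most. It was 0.602, 0.939 and 0.199 in exercised replicates 1, 2 and 3, and 0.212, 3.68 and 0.0643 in control replicates 1, 2 and 3. The range was 57.3-fold, and the exercised libraries lay inside the control range. The mean log2 ratio was -1.05 ± 1.15 in exercised and -1.44 ± 3.00 in control bone (SD, n = 3 each). Ctsk and Nfatc1 thus kept no fixed proportion in these libraries.

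Ctsk to Csf1 spanned 19.5-fold. The ratio was 1.13, 1.93 and 0.27 in exercised bone, and 0.455, 5.27 and 0.331 in control bone, so the groups overlapped. Ctsk to Tnfrsf11b, protease to decoy receptor, had the narrowest range of the 5 ratios examined, at 4.46-fold. It was 3.18, 1.36 and 4.48 in exercised bone, and 2.89, 6.04 and 1.98 in control bone, with a mean log2 ratio of 1.42 ± 0.89 in exercised and 1.70 ± 0.82 in control bone (SD, n = 3 each). The narrow range stands beside ranges above 30-fold in each of the 2 genes.

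Csf1 to Tnfrsf11b, both products of cells that regulate osteoclasts, spanned 23.7-fold. The ratio was 2.81, 0.701 and 16.6 in exercised bone, and 6.35, 1.15 and 5.98 in control bone. Replicate 2 was the lowest in both groups, where Tnfrsf11b was high, and exercised replicate 3 the highest.

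Ctsk to Acp5 compares the 2 resorption enzymes. The ratio was 1.30, 1.41 and 0.199 in exercised replicates 1, 2 and 3, and 2.16, 1.47 and 3.70 in control replicates 1, 2 and 3. In 5 of the libraries it lay between 1.30 and 3.70, while exercised replicate 3 had 562 Acp5 counts against 112 Ctsk counts. This was the only one of the 5 ratios in which the groups did not overlap, with means of log2 ratio of -0.49 ± 1.59 in exercised and 1.18 ± 0.67 in control bone (SD, n = 3 each). Among ratios of Ctsk to each of the 14494 other tested genes, the groups did not overlap in 0.524%. The ratio to Acp5 was singled out after its values were seen, and nothing is read from that share. The separation is narrow: the exact 95% binomial intervals of exercised replicate 2 (1.27 to 1.56) and control replicate 2 (1.40 to 1.54) overlap. Without exercised replicate 3 the log2 difference between the groups was -0.75, against -1.67 with all libraries. In the other 4 ratios, leaving out 1 library turned the sign of the difference.

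**Figure D4:**
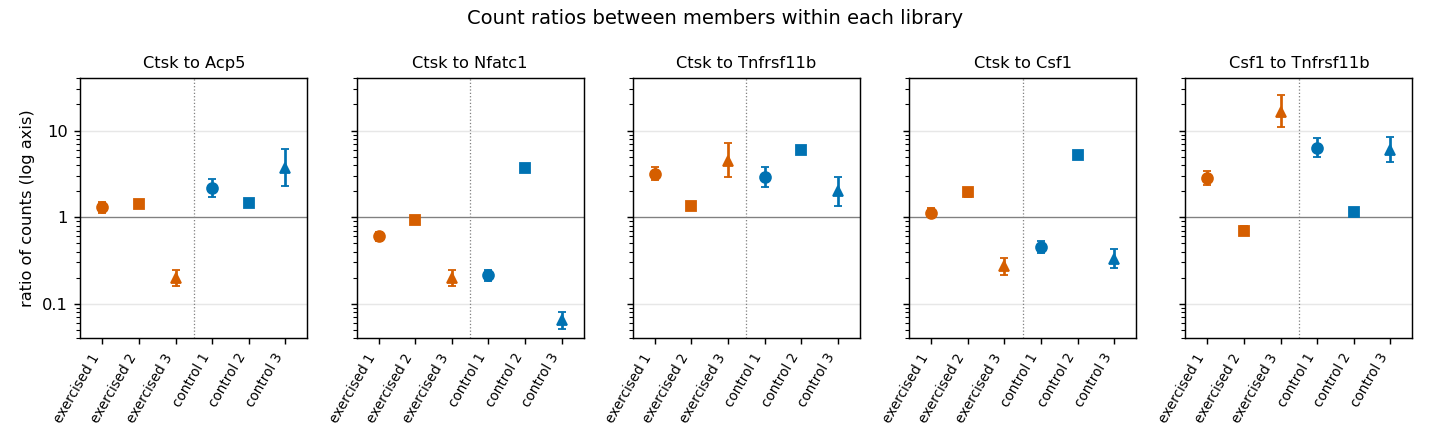
Count ratios between pairs of members in each library (log axis), with exact 95% binomial intervals that cover counting error only. Ctsk to Tnfrsf11b stays between 1.36 and 6.04, Ctsk to Nfatc1 runs from 0.0643 to 3.68, and Ctsk to Acp5 is 0.199 in exercised replicate 3.

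Correlations of log2 CPM over the 6 libraries describe the same pattern for all 10 pairs of members. The highest was between Ctsk and Tnfrsf11b, with Pearson's r = 0.925 and Spearman's rho = 0.886 (exact permutation p = 0.0139 and 0.0333, two-sided, 0.139 and 0.194 adjusted over 10 pairs). Leaving out control replicates 2 and 3, the libraries farthest from the Ctsk median, r was 0.983, and with group means removed it was 0.928. Among the other 14494 tested genes, Tnfrsf11b ranked 94 by its correlation with Ctsk. Csf1 ranked 248, Acp5 ranked 392 and Nfatc1 ranked 6200 on the same scale.

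Ctsk and Csf1 had r = 0.848 and rho = 0.829 (exact permutation p = 0.0361 and 0.0583, adjusted 0.18 and 0.194), although Csf1 moved over a far smaller range. Without control replicates 2 and 3, r was 0.604. Ctsk and Acp5 had r = 0.788 and rho = 0.829 (exact permutation p = 0.0556 and 0.0583, adjusted 0.185 and 0.194). That relation depended on single libraries: r was 0.292 without control replicates 2 and 3, 0.606 without control replicate 2 alone and 0.99 without exercised replicate 3. No pair passed 0.05 after adjustment. Nfatc1 had lower correlations with the resorption genes, and they too moved with single libraries. With Ctsk it had r = 0.081 and rho = -0.257 (exact permutation p = 0.892 and 0.658, adjusted 0.914 and 0.823), and r = 0.681 without control replicates 2 and 3. With 1 library left out, this r ran from -0.788 (without exercised replicate 3) to 0.539 (without control replicate 3). Nfatc1 and Acp5 had r = -0.547 and rho = -0.543 (exact permutation p = 0.258 and 0.297, adjusted 0.369 and 0.424), and r = -0.489 without control replicates 2 and 3. With 1 library left out it ran from -0.864 (without exercised replicate 3) to -0.181 (without control replicate 3). The remaining pairs had r = 0.744 (Acp5 and Csf1), 0.614 (Acp5 and Tnfrsf11b) and 0.714 (Csf1 and Tnfrsf11b). Nfatc1 had r = -0.059 with Csf1 and r = 0.277 with Tnfrsf11b. Without control replicates 2 and 3, r of Acp5 and Csf1 was -0.574. The libraries share a broad first component, and its part in these correlations was not tested.

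**Figure D5:**
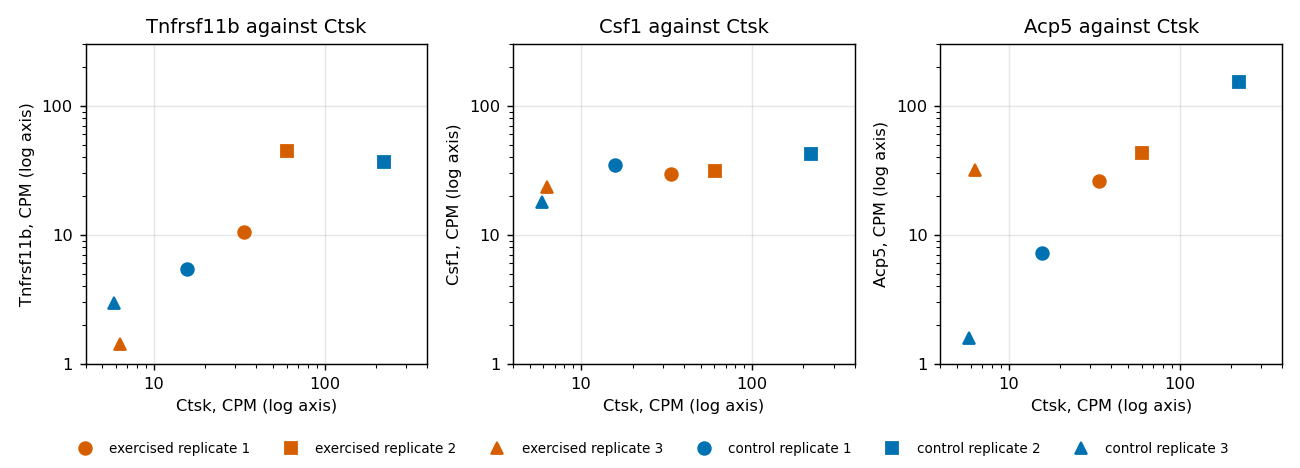
CPM of Tnfrsf11b, Csf1 and Acp5 against CPM of Ctsk in the 6 libraries (log axes on the same scale in all panels). Tnfrsf11b is broadly higher where Ctsk is higher, over more than a decade, and Csf1 moves only from 17.9 to 42.2 CPM. Exercised replicate 3 stands apart from the other points of the Acp5 panel, with 31.9 CPM of Acp5 at 6.36 CPM of Ctsk.

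The gene whose pattern was most like that of Ctsk, among 9223 others with a mean of at least 10 CPM, was ENSRNOG00000031475 (r = 0.996 over 6 libraries). It had 20.6, 27.2 and 5.96 CPM in exercised replicates 1, 2 and 3, and 13.4, 74.0 and 6.88 CPM in control replicates 1, 2 and 3. The gene most like Tnfrsf11b was ENSRNOG00000023576 (r = 0.996). Its values were 18.0, 84.9 and 1.70 CPM in exercised bone, and 11.1, 70.5 and 4.80 CPM in control bone. Both were found by ranking all these genes on 6 points, so the height of r is a product of the search, and neither identifier could be given a name.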

How the data were processed

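The authors deposited 1 table, with a row per Ensembl gene. The file headers call its columns FPKM, but the deposited values were treated as counts, because all are whole and because totals of this size in FPKM would imply genes of 71.1 nt or less on average. The submitters' processing notes name StringTie, edgeR, HISAT2 2.1.0, fastp 0.19.5 and CASAVA 1.8 without their roles, and the builds hg38 and mm10, which are not rat. The sources used here give no rat build, annotation release or strand setting. Without a strand setting, reads of overlapping or antisense genes cannot be told apart.

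The main test was edgeR 4.0.16 (R 4.3.3), quasi-likelihood, TMM scaling, filterByExpr (minimum count 10, minimum total 15), all 6 libraries, no covariate, adjusted p under 0.05. Standard errors were the absolute log2 fold difference over the root of F, and intervals used the fit's degrees of freedom. DESeq2 1.42.0 and limma 3.58.1 (voom) were alternatives. The fits were tested on simulated data. Log2 CPM used a prior count of 2. Poisson and binomial intervals (exact, 95%) cover counting error only. The design text counts 3 rats in each group; the p-values reflect the spread among the 6 libraries. Within a group, every pair of libraries differed beyond sampling noise (chi-square per degree of freedom at least 70.5).

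The members and lists were chosen with earlier results of these data known. The named genes were the 5 members and, since 0 of 32883 identifiers matched a symbol, the 1 gene most correlated with Ctsk and with Tnfrsf11b. The lists of other osteoclast genes and of cell type markers could not be read out.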

Additional observations from a re-analysis of the deposited data

How the results depend on the processing

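No member passed an adjusted p of 0.05 in any of the 15 alternative fits, where DESeq2 gave Acp5 no p-value. The number of genes changed was 0 in all of them except DESeq2 (1 gene), and 247 at an unadjusted p. Nfatc1 kept its sign in all 15 fits (-0.83 to -0.16 log2), Ctsk and Csf1 in 14, Acp5 in 12 and Tnfrsf11b in 11. With 1 library left out, the log2 fold difference ran from -2.09 to 1.63 for Ctsk, -1.24 to 2.92 for Acp5, -0.83 to -0.33 for Nfatc1, -0.45 to 0.10 for Csf1 and -1.40 to 2.16 for Tnfrsf11b. Leaving out control replicate 2 turned Ctsk (1.63), Acp5 (2.92) and Csf1 (0.10). Tnfrsf11b turned without control replicate 1 (-0.07), control replicate 3 (-0.16) or exercised replicate 2 (-1.40). Under limma voom Acp5 turned to 1.33 and Tnfrsf11b to -0.12. In alternatives added after seeing the data, the difference of means of log2 CPM was 1.41 for Acp5, and without control replicate 2 it was 1.28 for Ctsk, 3.21 for Acp5 and 0.17 for Csf1. The replicate block gave 0 genes (212 without adjustment of p), and Acp5 turned to 1.53. With the block the standard error was 0.70 for Ctsk (1.39 without it), 0.50 for Tnfrsf11b (1.32) and 0.30 for Csf1 (0.35). It was larger with the block for Acp5 (1.53 against 1.40) and Nfatc1 (0.42 against 0.33). The labels do not say that the replicate numbers mark a pairing. Same-numbered libraries deviated from their groups with correlations of 0.308, -0.41 and -0.495. With so few libraries, these values cannot settle whether the numbers mark anything shared. Values of r were also taken without the 2 libraries farthest from the median of the first gene named. For Nfatc1 and Tnfrsf11b these were control replicate 3 and exercised replicate 3. For the other pairs listed here they were control replicates 2 and 3. On what remained, r was 0.292 for Ctsk and Acp5, 0.681 for Ctsk and Nfatc1, 0.604 for Ctsk and Csf1, and 0.983 for Ctsk and Tnfrsf11b. It was -0.574 for Acp5 and Csf1 (0.744 with all 6 libraries) and 0.302 for Acp5 and Tnfrsf11b (0.614). For Nfatc1 and Tnfrsf11b it was -0.395 (0.277 with all 6), and for Csf1 and Tnfrsf11b 0.607 (0.714). Scaling by library size alone moved r of Acp5 and Nfatc1 to -0.236. With 1 library left out, the log2 ratio difference ran from -2.16 to -0.75 for Ctsk to Acp5, -0.87 to 2.05 for Ctsk to Nfatc1, -0.65 to 0.21 for Ctsk to Tnfrsf11b, -0.88 to 1.11 for Ctsk to Csf1 and -1.33 to 0.96 for Csf1 to Tnfrsf11b, so the sign turned in 4 of the 5. With 1 library left out, r of Ctsk and Nfatc1 ran from -0.788 to 0.539. The turns with a library left out come with fewer libraries, and for the other turns the cause was not tested.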
